A study of Mus musculus with 357 samples.

Results

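Trp53, Mdm2 and ndn, which encode the transcription factor p53, its ubiquitin ligase Mdm2 and the growth suppressor necdin, were read as 3 of the 96 gene assays run by quantitative PCR on single hematopoietic stem cells (HSCs) of mouse bone marrow. The 3 were chosen by assay name, and every cell on the 4 plates was used. Every cell came from Col1a1-tetO-H2B-mCherry mice, whose tetracycline-responsive allele makes a red fluorescent histone that is diluted as cells divide, and every cell had the sorted phenotype Lin-Sca1+c-kit+CD48-CD150+. One group was isolated after a chase of 2 weeks (90 cells on plate 1 and 93 on plate 2) and the other after a chase of 5 weeks (91 and 83 cells). The sources used here give neither the age of the mice, nor the driver of the tetracycline transactivator, nor the animal behind each cell. The times were therefore compared as 1 sample each and without a test, and the plates, which may be technical repeats, served as the spread. Each plate held 1 chase time, so plate and time cannot be told apart.

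The transcription factor p53 is held low in unstressed cells mainly by degradation of the protein, which Mdm2 marks with ubiquitin. Stress such as DNA damage stabilises p53, which then raises transcription of genes that stop the cell cycle, among them Cdkn1a, and of Mdm2 itself, so that the pair forms a negative feedback loop. In HSCs p53 is known for promoting quiescence, and Gfi1 and necdin have been reported as p53 targets there. Necdin is a protein of the MAGE family that is expressed from the paternal allele and binds E2F1 and p53. The assays read RNA and give no level of any of these proteins.

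The 250 bases before the annotated start of each gene are shown because Mdm2 is a transcriptional target of p53 and necdin a reported one. They are from RefSeq on GRCm38.p6 and run 5′ to 3′ on the gene's own strand, and capitals mark matches to the p53 half-site consensus of 10 bases. That consensus is its own reverse complement, so 1 search covers both strands.
Trp53, chr11:69580109-69580358, plus strand: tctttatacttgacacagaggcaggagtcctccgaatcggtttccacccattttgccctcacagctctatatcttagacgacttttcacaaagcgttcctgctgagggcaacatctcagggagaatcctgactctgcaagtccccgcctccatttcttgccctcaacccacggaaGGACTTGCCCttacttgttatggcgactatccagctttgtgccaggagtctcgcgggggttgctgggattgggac
Mdm2, chr10:117710759-117711008, minus strand: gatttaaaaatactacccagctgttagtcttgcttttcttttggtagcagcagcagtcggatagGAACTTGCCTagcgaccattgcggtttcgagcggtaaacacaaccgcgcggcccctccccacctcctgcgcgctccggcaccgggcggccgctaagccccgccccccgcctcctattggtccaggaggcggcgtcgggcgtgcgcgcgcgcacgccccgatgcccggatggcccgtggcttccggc
Ndn, chr7:62348027-62348276, plus strand: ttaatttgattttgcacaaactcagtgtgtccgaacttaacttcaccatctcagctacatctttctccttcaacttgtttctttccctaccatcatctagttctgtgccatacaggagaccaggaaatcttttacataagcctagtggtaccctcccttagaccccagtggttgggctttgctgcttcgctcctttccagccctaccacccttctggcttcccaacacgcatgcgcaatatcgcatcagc
The windows of Trp53 and Mdm2 each held 1 match, beginning 75 and 186 bases before the start, and that of Ndn held 0. Of 32851 such windows, 7.13% held at least 1 match. The Mdm2 window had 29 CpG dinucleotides, against 9 for Trp53, 5 for Ndn and a median of 6. A match is a description of these letters only, and the p53-responsive promoter known in the first intron of Mdm2 lies outside this window.

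Detection meant a threshold cycle (Ct) of 25 or below. A Ct is read where the reaction's fluorescence crosses a set value, and each cycle earlier stands for about a doubling of template. Cells had 39 to 72 detected assays on 3 of the plates and 27 to 71 on 5-week plate 2. The mean Ct of 13 broadly detected reference assays, none of them a member, was 13.37 ± 0.52 (SD, n = 90 cells) and 13.31 ± 0.51 (n = 93) at 2 weeks and 12.72 ± 0.59 (n = 91) and 12.99 ± 0.66 (n = 83) at 5 weeks. On average these assays therefore gave products earlier at 5 weeks, but by unequal amounts. In cycles earlier at 5 weeks, the shift was 1.44 for Nfe2 and 1.25 for Zfpm1. It was -0.03 for Hlf, -0.05 for Gapdh and -0.20 for CDK4, with plates overlapping. The levels and bins below rest on the mean of the 13. Of the 9 markers listed for HSCs 8 were measured, and Kit was detected in 97.8% of cells or more on every plate. In detection share 1 of the 8, TEK, was higher on both 5-week plates than on both 2-week plates (17.9 points), and 5 overlapped. Lower were 2, namely Ly6a (-18.3) and Slamf1 (-16.4), which encode Sca1 and CD150. Over all 96 assays 42.7% were higher and 7.29% lower by the same rule. Of 20 markers listed for other cell types 7 were on the panel. At least 1 of the 7 had a product in 32.2 and 39.8% of the cells at 2 weeks and 42.9 and 34.9% at 5 weeks, with at most 4 in a cell. Of the 7, the B lineage gene Ebf1 was at 0 in all cells, which allows a share of up to 0.84%, and Cd48 was found in 2 and 3 cells at 2 and 5 weeks. Csf1r, of monocytes, was lower on both 5-week plates (27 against 4 cells), but among products by Ct 18 its difference was 0.66 points and the plates overlapped. Cebpe, listed for granulocytes and monocytes with it, was found in 8 against 11 cells with plates overlapping. By Ct 18 Cebpe was higher on both 5-week plates (1.78 points). The erythroid genes Epor (39 against 52 cells) and Klf1 (9 against 13) were higher on both 5-week plates at either limit. So were 42.7% of all assays at Ct 25 and 43.8% at Ct 18. The part of these markers in the results below was not tested.

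The transcript of p53 was present in every cell. Trp53 was detected in 90 of 90 and 93 of 93 cells at 2 weeks and in 91 of 91 and 83 of 83 at 5 weeks, and the lowest of the exact Clopper-Pearson 95% bounds of the plates was 95.7%. These intervals, like all intervals given here, cover counting error only. On 2-week plate 1 its Ct ran from 12.28 to 23.23 with a median of 14.75, and on plate 2 from 12.94 to 23.25 with a median of 14.46. On 5-week plate 1 the Ct ran from 12.01 to 17.28 with a median of 14.28, and on plate 2 from 12.53 to 19.10 with a median of 14.23. Both 5-week medians were thus earlier than both 2-week medians, and the cells of all 4 plates overlapped over most of their range.

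Without centring, Trp53 products came earlier at 5 weeks on both plates, with mean Ct values of 14.98 ± 1.40 (SD) and 14.72 ± 1.32 at 2 weeks and 14.37 ± 1.09 and 14.39 ± 1.03 at 5 weeks. This shift of 0.47 cycles was shared with much of the panel: 61.2% of the 80 assays for which every plate had 10 or more detecting cells had an earlier mean Ct on both 5-week plates, and the median shift over the 80 was 0.37. Level was therefore measured in log2 units by subtracting the Ct of the gene from the mean reference Ct of the same cell. On this scale Trp53 was at -1.61 ± 1.20 (SD, n = 90) and -1.41 ± 1.19 (n = 93) on the 2-week plates and at -1.65 ± 0.81 (n = 91) and -1.40 ± 0.73 (n = 83) on the 5-week plates. The difference of -0.03 between times was smaller than the gap between the 2 plates of either time, and comparisons of single plates ran from -0.24 to 0.21. Trp53 lay at rank 36 of 80 in this difference. Its neighbours in that order, Notch1 (0.06) and TEK (0.07) above and Sfpi (-0.03) and Cdt1 (-0.12) below, lay within the spread of the Trp53 plate comparisons (SD 0.18). With centring on Actb and Gapdh alone the difference was 0.36, with both 5-week plates above both 2-week plates. Relative to the median difference over assays it was 0.11. In that setting both 5-week plates lay above when each plate was set against its own median over assays. The difference was 0.11 without 5-week plate 1 and -0.15 without 5-week plate 2, again with no overlap. Neither its sign nor its size held across these settings.

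Among cells, Trp53 varied about as much as other broadly detected genes, apart from a few late products. The interquartile range of its level had a median of 0.92 over the plates, rank 7 of 14 among the reference assays and Trp53. The SD, with a median of 1.00, was second to that of Hlf (1.28). Trp53 products later than Ct 18 were found in 4 cells, 3 of them at 2 weeks. Of the 4, the cell with a Trp53 Ct of 19.48 had an Mdm2 product, and 2 had an ndn product. The 4 cells had 49 to 55 detected assays, within the range of the other cells.

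**Figure D1:**
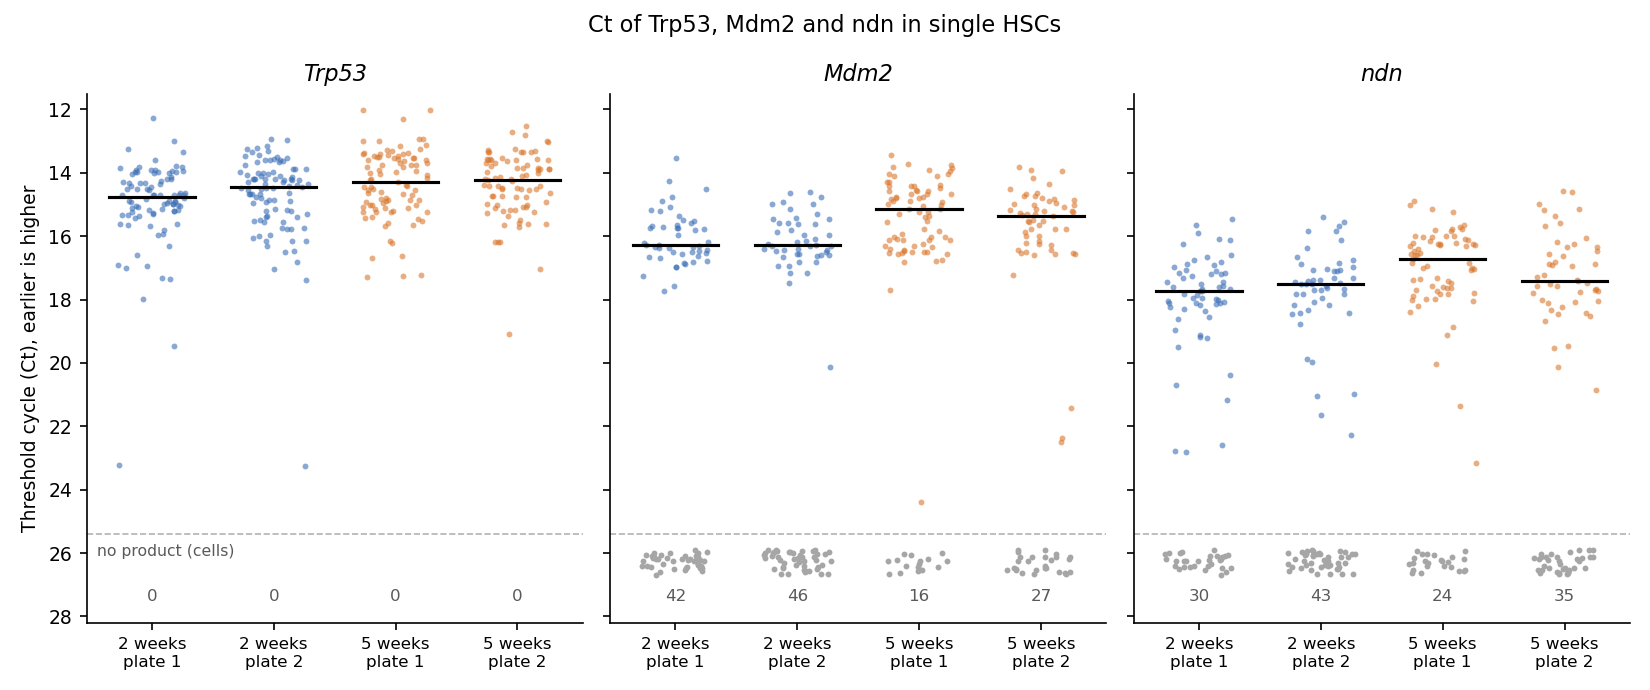
Each point is the threshold cycle (Ct, axis inverted so that earlier products are higher) of 1 cell for Trp53, Mdm2 and ndn on the 4 plates, black lines are medians over detecting cells, and grey points below the dashed line are cells with no product, with their number. Trp53 has a product in every cell, while 42 and 46 cells at 2 weeks and 16 and 27 at 5 weeks have none for Mdm2.

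Mdm2, the ligase that limits p53, was detected in more cells at 5 weeks than at 2. It had a product in 48 of 90 and 47 of 93 cells on the 2-week plates, or 53.3% (42.5 to 63.9%) and 50.5% (39.97 to 61.1%). On the 5-week plates it had one in 75 of 91 and 56 of 83 cells, or 82.4% (73.02 to 89.6%) and 67.5% (56.3 to 77.4%). The 2-week plates lay close together, the 5-week plates did not, and both 5-week plates lay above both 2-week plates. Intervals of plates next to each other in this order overlapped, and that of 5-week plate 1 lay above those of both 2-week plates. The pooled difference was 23.4 percentage points, with plate comparisons from 14.1 to 31.9, and it was 15.6 points without 5-week plate 1.

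Plates are called apart here where both at 5 weeks lie on the same side of both at 2 weeks, which is an ordering of 4 plates and no test. Of the 96 assays, 42.7% were apart and higher at 5 weeks in detection share, and 7.29% apart and lower. Being apart and higher was therefore common on this panel, and 1 of the 3 members, Mdm2, was. The size of the Mdm2 difference ranked 4 of 96. Next to it in that order stood Nkx2.3 (27.55 points) and Fos (27.7) above and Prmt2 (22.7) and Cers4 (20.98) below. These values lay within the spread of the Mdm2 plate comparisons (SD 8.78 points). Counting only products by Ct 18, the Mdm2 difference was 21.6 points (10.5 to 31.9). Those of Prmt2 and Cers4 were 19.8 and 13.4, and those of Fos and Nkx2.3 were 1.22 and 1.15. Nkx2.3 had such products in 0% of the cells at 2 weeks and 1.15% at 5 weeks. At that limit 43.8% of the assays were apart and higher, Mdm2 among them.

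The Mdm2 difference was accompanied by the earlier reference Ct at 5 weeks. Cells of both times together were divided into 3 bins of equal size by their mean reference Ct, at 12.88 and 13.35. In the bin with the earliest reference Ct, 77.8% of 27 cells at 2 weeks (57.7 to 91.4%) and 81.5% of 92 cells at 5 weeks (72.1 to 88.9%) had an Mdm2 product. In the middle bin 53.7% of 67 cells (41.1 to 66.002%) and 75% of 52 cells (61.1 to 85.97%) had it. In the latest bin the shares were 42.7% of 89 cells (32.3 to 53.6%) and 56.7% of 30 cells (37.4 to 74.5%). The 5-week share was the higher in each bin, by 3.74, 21.3 and 13.97 points, and the intervals of the 2 times overlapped in each. A logistic fit with the reference Ct of each cell as covariate gave a difference of 12.99 points. Reference Ct and time moved together, and the part of either in the Mdm2 difference was not tested.

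**Figure D2:**
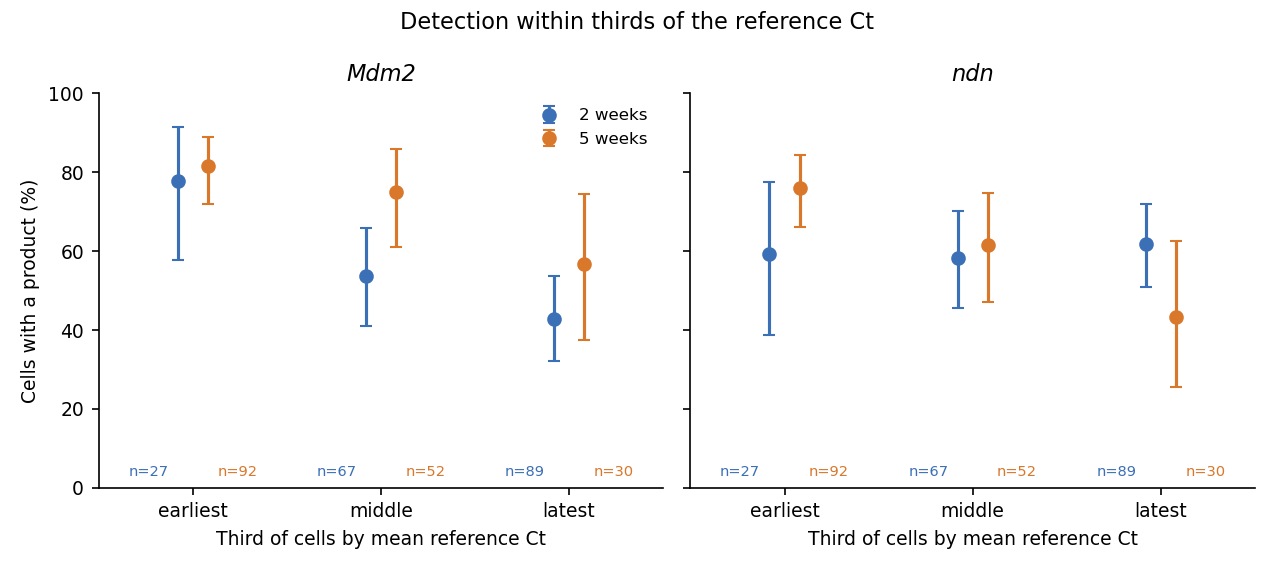
Points are the percentage of cells with an Mdm2 (left) or ndn (right) product at 2 weeks (blue) and 5 weeks (orange) within 3 bins of all cells by mean reference Ct, with exact 95% intervals and the number of cells. The Mdm2 share at 5 weeks is the higher in each bin, while the ndn difference is positive in the earliest bin (16.8 points) and negative in the latest (-18.5 points).

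In cells that had it, the Mdm2 product came earlier at 5 weeks, by 0.53 cycles on average. How much of that shift remained after centring depended on the reference: 0.11 with the 13 reference assays, 0.24 relative to the median over assays and 0.51 with Actb and Gapdh. The middle 50% of detecting cells lay between Ct 15.63 and 16.58 and between 15.59 and 16.58 at 2 weeks, with medians of 16.29 and 16.29. At 5 weeks it lay between 14.55 and 16.18 (median 15.16) and between 14.94 and 16.22 (median 15.36). Relative to the reference assays the level was -2.86 ± 0.73 (SD, n = 48) and -2.96 ± 0.98 (n = 47) at 2 weeks and -2.76 ± 1.29 (n = 75) and -2.87 ± 1.70 (n = 56) at 5 weeks. The difference of 0.11 was small beside these SDs, the plates overlapped, and comparisons ran from -0.01 to 0.21. It was 0.15 without 5-week plate 2 and 0.16 without 2-week plate 1, with plates apart in both, 0.04 without 5-week plate 1 and 0.05 without 2-week plate 2. Late products were few: 1 of 75 and 3 of 56 at 5 weeks were later than Ct 18, against 0 of 48 and 1 of 47 at 2 weeks. Among products by Ct 18 the difference was 0.27 with plates apart, and with medians over cells it was 0.20, also apart. Of the 80 assays with a level, 28.8% were apart and higher at 5 weeks and 43.8% apart and lower. These shares depended on the centring: 23 assays were higher and 35 lower as given, 49 and 6 without centring, and 45 and 9 with Actb and Gapdh.

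**Figure D3:**
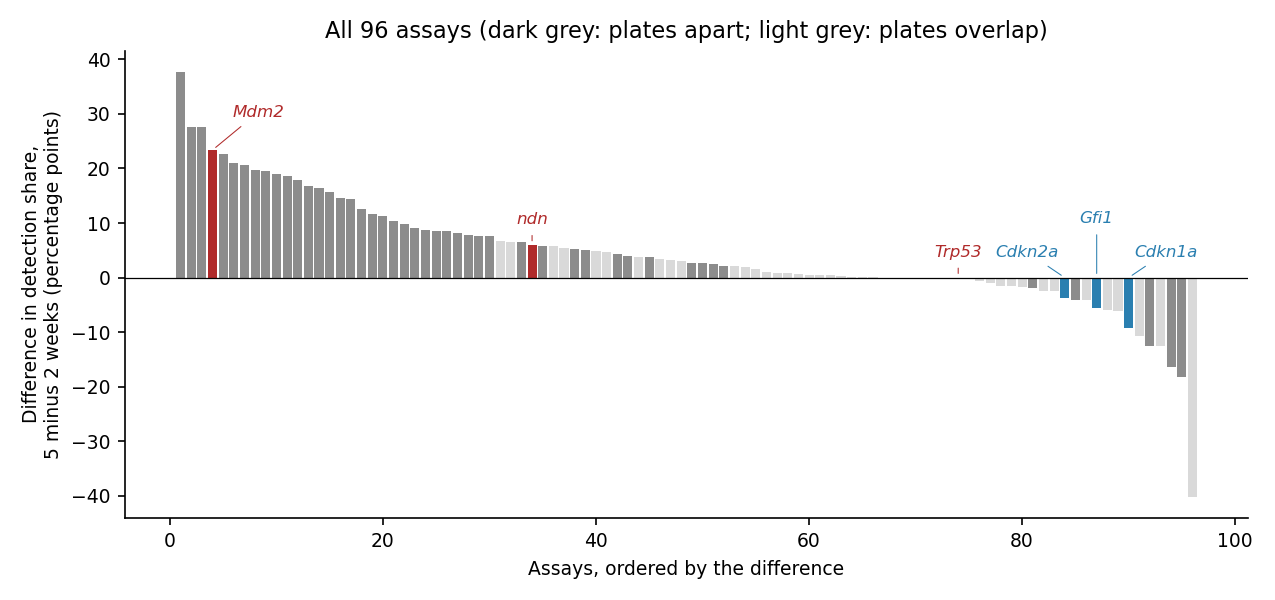
Bars are the difference in detection share, 5 minus 2 weeks in percentage points, of all 96 assays in order, dark grey where the plates are apart and light grey where they overlap. Red bars mark Mdm2 (23.4 points, rank 4), ndn (5.98 points, rank 34) and Trp53 (0, full detection at both times), and blue bars mark Cdkn2a, Gfi1 and Cdkn1a, which are negative.

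Necdin transcript was found in a majority of cells on every plate, with the 2 plates of each time unlike each other. The ndn assay had a product in 60 of 90 and 50 of 93 cells at 2 weeks, or 66.7% (55.9 to 76.3%) and 53.8% (43.1 to 64.2%). At 5 weeks it had one in 67 of 91 and 48 of 83 cells, or 73.6% (63.3 to 82.3%) and 57.8% (46.5 to 68.6%). Plate 1 of each time lay above plate 2 of both, so the times overlapped. The pooled difference of 5.98 points (rank 34 of 96) had plate comparisons from -8.84 to 19.9. It was -2.28 without 5-week plate 1 and -0.57 without 2-week plate 2, with plates overlapping in both. It was 13.5 without 5-week plate 2 and 12.3 without 2-week plate 1, with plates apart and higher at 5 weeks in both. Its neighbours in the order, Cbx7 (6.50) and Nfat5 (6.50) above and Cbfa2t3 (5.87) and Cdkn2c (5.80) below, lay within the spread of the ndn comparisons (SD 11.8 points).

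Late products were more frequent for ndn than for the other members. Of its products, 27.1% were later than Ct 18, against 2.21% for Mdm2 and 1.12% for Trp53. On the plates they made up 40 and 28% at 2 weeks and 13.4 and 29.2% at 5 weeks. Counting products by Ct 18 alone, ndn was found in 40% and 38.7% of the cells at 2 weeks and 63.7% and 40.96% at 5 weeks. The plates were then apart, as for 43.8% of the assays at that limit. The difference was 13.5 points, while 5-week plate 2 lay 0.96 points above 2-week plate 1.

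The level of ndn in detecting cells was -4.61 ± 1.59 (SD, n = 60) and -4.47 ± 1.42 (n = 50) on the 2-week plates and -4.35 ± 1.16 (n = 67) and -4.35 ± 1.38 (n = 48) on the 5-week plates. The difference of 0.19 had plates apart, with comparisons from 0.11 to 0.26, and was small beside the SD over cells. It was larger with plates apart without centring (0.77), with Actb and Gapdh (0.61) and relative to the median over assays (0.33). It turned to -0.09 with medians over cells and to -0.14 among products by Ct 18, with plates overlapping in both. Within bins of the reference Ct the difference in the share of cells with ndn also took both signs. In the earliest bin it was 59.3% of 27 cells at 2 weeks and 76.1% of 92 at 5 weeks, and in the latest bin 61.8% of 89 and 43.3% of 30.

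The remaining genes of the p53 network were detected in few cells. Of 32 genes listed for the network 6 were on the panel, namely the 3 members, Cdkn1a, Gfi1 and Cdkn2a. In detection share 1 was apart and higher (Mdm2), 2 were apart and lower (Cdkn1a and Gfi1) and 3 overlapped, beside 42.7% higher and 7.29% lower over all assays. The median difference over the 6 was -1.87 points, beside 2.85 over all 96 assays. It was -0.75 without 2-week plate 1, -1.08 without 5-week plate 2 and -2.93 without 2-week plate 2.

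Cdkn1a, like Mdm2 a transcriptional target of p53, encodes the inhibitor p21 and was detected in fewer cells at 5 weeks. It was detected in 9 of 90 and 13 of 93 cells at 2 weeks and in 4 of 91 and 1 of 83 at 5 weeks. The difference was -9.15 points, with plate comparisons from -12.8 to -5.60. Gfi1, a transcriptional repressor that restrains HSC proliferation, was found in 12 and 13 cells at 2 weeks and 5 and 9 at 5 weeks. Its difference of -5.62 points was -2.82 once 5-week plate 1 was left out and -1.05 in a logistic fit on the reference Ct. Among wells with at least 50% of assays detected it was -3.45 and the plates overlapped. Cdkn2a, whose locus encodes the Mdm2 antagonist p19Arf and the inhibitor p16, was detected in 7 and 3 cells at 2 weeks and in 3 and 0 at 5 weeks. The exact interval for 0 of 83 cells reaches 4.35%. The Cdkn2a plates overlapped, with a difference of -3.74 points. It was -5.46 without 5-week plate 1 and -6.05 without 2-week plate 2, with plates apart in both, -2.17 without 5-week plate 2 and -1.50 without 2-week plate 1. At Ct 18 the differences of Cdkn1a, Gfi1 and Cdkn2a were -9.18, -5.62 and -3.19 points, close to those at Ct 25. Mdm2 and Cdkn1a were thus apart in opposite directions on the same plates.

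**Figure D4:**
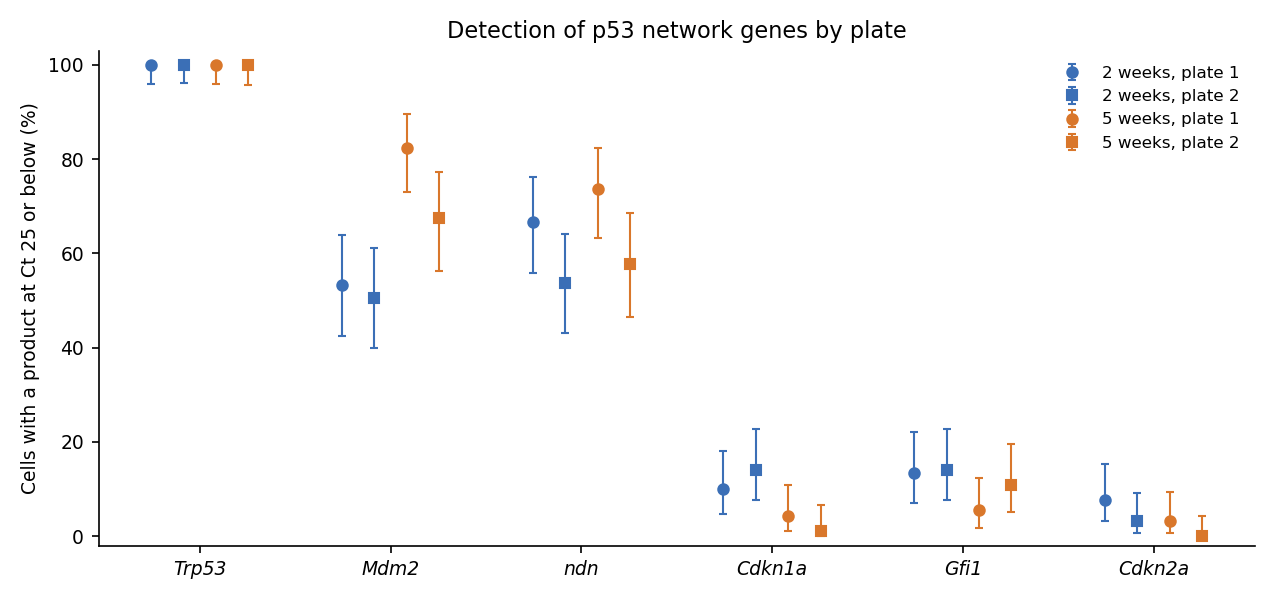
Points are the percentage of cells with a product at Ct 25 or below for the 6 measured genes of the p53 network on each plate (circles plate 1, squares plate 2, blue 2 weeks, orange 5 weeks), with exact 95% intervals. Both 5-week plates lie above both 2-week plates for Mdm2 and below them for Cdkn1a and Gfi1, and the plates overlap or are equal for the other genes.

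Genes that act beside p53 and necdin in the control of cell cycle entry gave a mixed picture, to be read beside the 42.7% of all assays that were apart and higher and the 7.29% apart and lower in detection share. Of 7 Rb and E2F genes listed, 3 were measured, namely Rb1, Rbl1 and Rbl2, and no E2F gene was. Of these 3, 0 were apart in detection share, and the median difference was 2.97 points. In level Rb1 (-0.29) and Rbl1 (-0.40) were apart and lower and Rbl2 (0.09) apart and higher, and the signs of Rb1 and Rbl1 turned without centring. Of the CIP/KIP inhibitors 2 were higher in detection share and 1, Cdkn1a, was lower. Cdkn1b, which encodes p27, had a product in 46.7 and 54.8% of the cells at 2 weeks and 89.01 and 87.95% at 5 weeks. Cdkn1c, which encodes p57 and is imprinted like Ndn, had one in 48.9 and 51.6% against 56.04 and 60.2%, and its difference of 7.77 points was 1.74 at Ct 18. In level Cdkn1c was apart and lower (-0.57), while the plates overlapped for Cdkn1b (0.07). Without centring the Cdkn1c level difference was -0.05 and the plates overlapped. Of 3 INK4 genes 1 was higher in detection share, Cdkn2d (5.29 points). Its difference was 1.86 with plates overlapping among wells with at least 50% of assays detected. In level Cdkn2d (-0.30) and Cdkn2c (-0.47) were apart and lower. Without centring these level differences were 0.24 and -0.01, with plates overlapping. Of 7 G1 cyclins and kinases 3 were higher in share, namely Ccnd1 (19.5 points), CDK2 (18.9) and Ccnd3 (8.11), and 0 were lower. Ccnd2 and CDK4, both reference assays, were at 100% on every plate, so their shares were equal. In level, measured for 6 of the 7, Ccnd2 (-0.39) and CDK4 (-0.69) were apart and lower, Ccnd1 (0.21) apart and higher, and 3 overlapped. Over all assays with a level 28.8% were apart and higher and 43.8% apart and lower. Without centring Ccnd2 and CDK4 differed by 0.10 and -0.20. The median difference in share was 7.77 points for the CIP/KIP genes, 5.29 for the INK4 genes and 3.78 for the G1 cyclins and kinases. Over all assays it was 2.85. The INK4 median was 1.52 without 2-week plate 1 and 1.86 with the stricter well filter, and the G1 median was 0 and 0.60 under the same settings. The CIP/KIP median was 1.74 among products by Ct 18. With a plate left out the Rb and E2F median ran from 1.14 to 4.87.

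Across single cells, Trp53 was related more to the general level of the cell than to the other members, and Mdm2 and ndn were weakly related to either. Correlations were taken across the cells of each plate (n = 83 to 93), on the Ct with its sign turned and undetected reactions set to the limit. These cells share plate and pre-amplification, so the values are descriptions. Undetected reactions of Mdm2 and ndn were tied at the limit and Trp53 had none, so their values are not like for like. Spearman's rho of Trp53 with the reference level of the cell lay between 0.60 and 0.73 on the 4 plates, that of Mdm2 between 0.14 and 0.41, and that of ndn between 0.06 and 0.42. For ndn the 2-week values, 0.06 and 0.09, lay below the 5-week values, 0.42 and 0.35, and this difference was not tested.

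Trp53 and Mdm2 had a rho of 0.23 and 0.26 at 2 weeks and of 0.27 and 0.06 at 5 weeks. With each Ct centred on the reference assays of the cell the values lay between -0.12 and 0.03. Cells without Mdm2 were there centred from the limit, so their Mdm2 value held only the reference Ct. Among cells with both products the values before centring were 0.42 and 0.34 at 2 weeks and 0.26 and 0.06 at 5 weeks. Among the same cells, centred, the values lay between -0.18 and 0.25. The values on the Ct as deposited were all above 0, and the centred values took both signs. Trp53 and ndn had values of -0.01 and 0.04 at 2 weeks and of 0.24 and 0.25 at 5 weeks. Among cells with both products, before centring, their values ran from -0.08 to 0.36. Centred with undetected reactions at the limit, their values lay between -0.09 and 0.04. Mdm2 and ndn, on the Ct as deposited, lay between -0.11 and 0.07. Pearson's r for the same pairs ran from 0.06 to 0.23, from -0.09 to 0.22 and from -0.07 to 0.04.

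**Figure D5:**
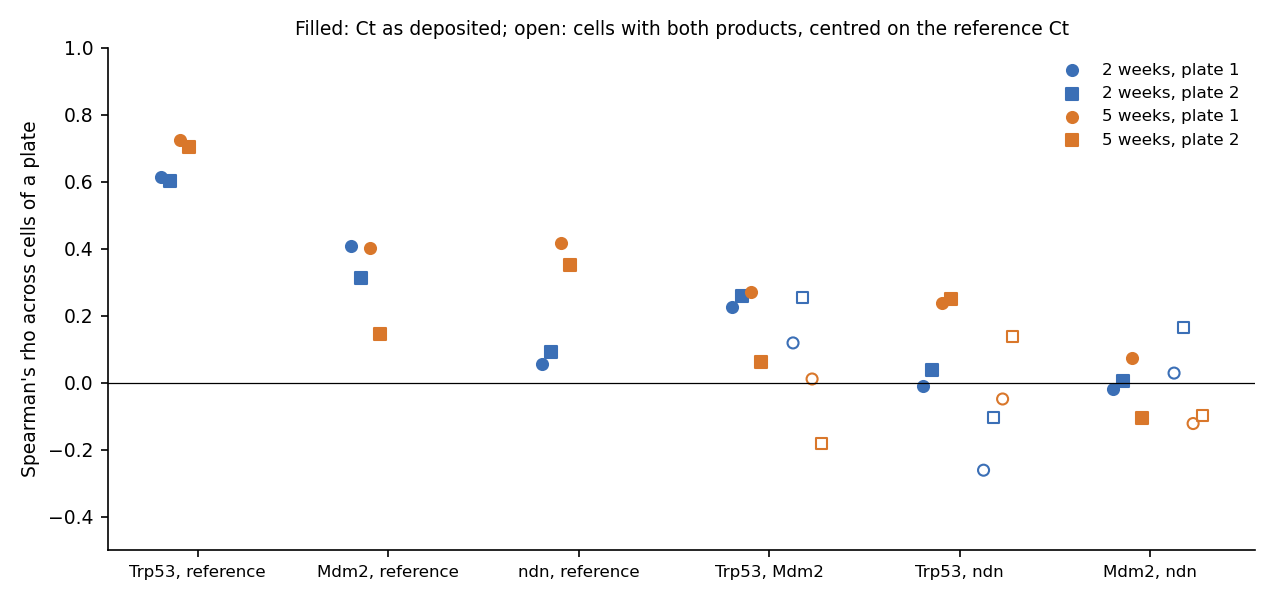
Filled points are Spearman's rho across the cells of each plate on the Ct as deposited, for each member with the mean reference Ct of the cell (left, sign turned) and for the pairs of members (right). Open points are the pairs among cells with both products after centring. Trp53 follows the reference level on every plate (0.60 to 0.73), and centred pairs fall on both sides of 0.

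Detection of Mdm2 and ndn in the same cell was close to what the separate shares give. Both products were found in 30 of 90 and 24 of 93 cells at 2 weeks, where the product of the shares gives 32 and 25.3 cells. At 5 weeks they were found together in 55 of 91 and 33 of 83 cells, where it gives 55.2 and 32.4. The share of cells with both products was 29.5% at 2 weeks and 50.6% at 5 weeks, and 12 and 20 cells at 2 weeks and 4 and 12 at 5 weeks had neither. Of the 27 cells with Cdkn1a, 13 of 22 at 2 weeks and 4 of 5 at 5 weeks also had Mdm2, and the product of the shares gives 11.4 and 3.76.

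The assays most like Trp53, by the rho on their weakest plate among 80 compared, were Gapdh (0.61 to 0.68 over the plates), CDK4 (0.59 to 0.69) and Actb (0.58 to 0.72), all of them reference assays. For Mdm2 they were Ldb1, a cofactor of LIM-domain proteins (0.27 to 0.32), the ETS factor Fli1 (0.19 to 0.32) and the GATA cofactor gene Zfpm1 (0.16 to 0.40). Ldb1 and Zfpm1 are reference assays too. For ndn they were vwf, which encodes von Willebrand factor (0.17 to 0.34), Mllt3 (0.17 to 0.31) and the cyclin gene Ccnd2 (0.17 to 0.41), which is also a reference assay. The lowest values were those of Ly6a (-0.19 to -0.12) and Flt3 (-0.19 to -0.03) for Mdm2 and of Flt3 (-0.21 to -0.10) and Gata1 (-0.17 to 0.01) for ndn. All values for Mdm2 and ndn were weak. Pearson's r for the top 3 ran from -0.01 to 0.37 for Mdm2 and from 0.09 to 0.36 for ndn. Gfi1 had a negative rho with Trp53 on each plate (-0.33 to -0.12). It rested on 39 detecting cells, and Gfi1 was also negatively related to the reference level (-0.35 to -0.20).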

How the data were processed

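The authors deposited threshold cycles without normalization, 1 per assay and cell, with the code 999 for no product. Per the labels' protocols, single sorted cells were lysed in plate wells, reverse transcribed, pre-amplified for 22 cycles with all assays together, diluted 5-fold and read by EvaGreen quantitative PCR over 30 cycles. Software and threshold behind each Ct were not given in the sources used here.

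The 357 cells were grouped by their titles into 2 chase times (183 and 174 cells) with 2 plates each. Wells with under 20% of assays detected were to be removed, and 0 were. Detection meant Ct 25 or below, and 0 pairs of cells had identical values. The 13 reference assays (Zfpm1, Nfe2, Kit, Hlf, Actb, Lmo2, Gata2, Gapdh, Meis1, Ldb1, CDK4, Etv6 and Ccnd2) had a product in 95% of cells or more on each plate, with the members left out. Levels needed 10 detecting cells on each plate, and likeness was sought among assays with a product in 10% or more of the cells of each plate. Intervals are exact Clopper-Pearson 95% intervals, and a count of 0 was given a limit of 3 counts. The members and gene lists were chosen with earlier results of these data known. Named genes were the members, measured genes of the p53 network, up to 3 apart genes per other list, the nearest assays by rho and the neighbours in the ranked differences. Marker genes check the sort. The megakaryocyte list was left out of the markers of other cell types, since HSCs also express vwf. Alternatives were other Ct limits, centrings, well filters, weights, covariates and each plate left out. Promoter windows were matched to all 3 members by symbol, regardless of case. The code was tested on simulated plates. Python 3.11.15, pandas 2.3.3, numpy 2.4.6, scipy 1.17.1 and statsmodels 0.14.6 were used.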

Additional observations from a re-analysis of the deposited data

How the results depend on the processing

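The Mdm2 gain in detection share kept its direction under every limit, filter and weighting tried and with each plate left out (15.6 to 30.5 points), and in logistic fits was 12.99 points given the reference Ct and 16.9 given how many assays a cell had. The Trp53 share differed by 1.09 points at Ct 23 and 1.06 at Ct 18. The count of assays with plates apart in share, 48 of 96, was 58 to 74 with a plate left out, since 1 plate against 2 is apart more often. Levels depended on the centring. Without it Trp53, Mdm2 and ndn differed by 0.47, 0.53 and 0.77, and with Actb and Gapdh by 0.36, 0.51 and 0.61. Relative to the median over assays they differed by 0.11, 0.24 and 0.33. Plates were apart in each, in the last with each plate set against its own median over assays. Over all cells, here and below with undetected reactions set to Ct 25, Mdm2 and ndn differed by 1.99 and 0.44. Such values hold the difference in detection as well as that in level. The Mdm2 level difference was 0.20 with medians and 0.27 at Ct 18, and that of ndn turned to -0.090 and -0.14. With centring, where cells without a product held only the reference Ct, the median rho over plates turned from 0.24 to -0.025 for Trp53 and Mdm2. It was 0.30 among cells with both products, and 0.065 among these after centring, a combination chosen after seeing the data. For Trp53 and ndn the median was -0.057 with the same centring, 0.21 among cells with both products and -0.077 among these after centring. The numbers of assays higher and lower in level were 37 and 15 over all cells and 34 and 15 relative to the median over assays. Among other genes the level differences of Ccnd2, Cdkn2d, Rb1 and Rbl1 turned to 0.10, 0.24, 0.26 and 0.093 without centring, those of Cdkn2d and Rb1 to 0.083 and 0.16 with Actb and Gapdh, and those of Cdkn1c, Cdkn2c and Cdkn2d to 0.11, 0.052 and 0.12 over all cells. The causes of these changes were not tested. With 2 plates per time, 1 chase time per plate and no animal named, differences between times have no replicate check. No paired analysis was possible because each plate held 1 chase time and its number marks no shared source in the labels.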
